A study of Mus musculus with 6 samples.

Results

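Ribosomal protein genes encode the protein components of the small and large ribosomal subunits. Their mRNAs are made in step with cell growth in most tissues, and many begin with a run of pyrimidines at the transcription start, the terminal oligopyrimidine tract, through which growth signalling adjusts their translation. In the mouse genome some of these genes lie head to head or tail to tail with a gene on the other strand, so that the exons of both cover the same bases. The genes described here were the cytoplasmic ribosomal protein genes chosen by symbol (Rpl and Rps names, Rplp0 to Rplp2 and Rpsa), together with every gene sharing at least 1 exonic base with one of them on the opposite strand. Of 89 symbols that matched, 6 were annotated as pseudogenes and left out. The remaining 83 ribosomal protein genes and their 21 opposite-strand neighbours made 104 of the 57010 genes counted.

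Polyadenylated RNA was sequenced from 6 mouse samples, all wild type and unperturbed, which formed 2 groups of 3. The ESC group was wild-type embryonic stem cells in culture. The neuron group was wild-type primary cortical neurons taken from cortices at embryonic day 16.5 and grown 7 days in vitro. The study used both as reference states for a developmental trajectory, and the comparison asks how the pluripotent and the neuronal state differ. Neuronal cultures of this kind can hold glia and dividing cells, and nothing in the labels says that the replicates were separate cultures or animals, so p-values measure the spread between these samples, which may be technical. The batch label equals the group, so batch and cell type cannot be told apart. In bulk RNA, fewer cells of a type and less RNA per cell cannot be told apart either.

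Total counts ran from 513425 to 1775055 per library, and were lower in all 3 neuron libraries than in all 3 ESC libraries. Levels are given as CPM, counts divided by library sizes scaled with TMM. A count of 3 corresponded to 2.26 to 2.90 CPM in ESC and to 3.92 to 4.81 CPM in neurons. Of 12 fixed ESC markers, 5 were tested and all 5 were lower in neurons, and 8 had 0 counts in every neuron library. Their summed counts were low in ESC too, at 324, 182 and 281, against 3 in each neuron library. That was 0.0169% ± 0.0031 of counts in ESC (SD, n = 3). Of 14 neuron markers, 4 were tested. Nefm and Map2 were higher in neurons, while Slc17a7, the vesicular glutamate transporter of cortical excitatory neurons, had 64, 49 and 54 counts in ESC, against 2, 1 and 0 in neurons, and Stmn2 was also lower. By assigned counts, those 2 markers go against the neuron label. Whether their counted reads came from the strand of their own mRNA was not tested. Summed, the 14 neuron markers had 294, 272 and 245 counts in ESC, against 835, 887 and 742 in neurons. That was 0.0177% ± 0.0019 of counts in ESC and 0.146% ± 0.013 in neurons (SD, n = 3 each). The astrocyte markers summed to 30 to 56 counts in neuron libraries and 6 to 12 in ESC libraries, and the oligodendrocyte markers to 181 to 229 against 57 to 65. The 7 microglial markers summed to 222 to 288 counts in ESC libraries and 81 to 111 in neuron libraries; most were on Csf1r, 2 were tested and both were lower in neurons, and Ptprc, C1qa and Tmem119 had 0 counts in every library. The 5 markers of cycling and progenitor cells took 0.00293% ± 0.00014 of counts in ESC and 0.0115% ± 0.0024 in neurons (SD, n = 3 each). Of these, Pax6 was higher in neurons, with 61, 41 and 64 counts against 8, 8 and 4, and Top2a was lower, with 1, 0 and 0 against 32, 22 and 25. The part of other cell types in the results below was not tested. Library names of neuron replicates 2 and 3 hold the unexplained word empty.

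The 21 pairs joined 19 ribosomal protein genes to 21 neighbours, since Rpl35 and Rps25 each had 2. Their exons shared 36 to 953 bases, with a median of 160. There were 10 pairs placed head to head, 9 tail to tail and 2 with one gene inside the span of the other. Of the neighbours, 15 were protein-coding, 4 were annotated as antisense RNAs, 1 as a bidirectional promoter lncRNA and 1 as a transcript to be experimentally checked. Another 3 ribosomal protein genes lay opposite introns only, and 61 had no gene opposite. Whether the counting used strand is not given in the sources used here, so reads from a gene and from its opposite-strand neighbour may not be told apart, and all values for the pairs are uncertain in that respect. Gene positions below are those of the count table (GRCm39, per the submitters' processing notes), while the promoter windows are placed on GRCm38.p6.

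Promoter sequences show how the ribosomal protein genes begin and how closely some neighbours face them. A RefSeq promoter entry (GRCm38.p6) was found by symbol for 63 of the 83 ribosomal protein genes and 12 of the 21 neighbours. The windows below run from 40 bases before the annotated start to 20 bases from it, with the longest unbroken run of C and T in capitals. They were chosen because Rpl35 is paired with the neighbour with the most counts, Rps10 and its neighbour Gm15420 start at the same place in that table, Rpl28 and Rps28 are paired with neighbours that were higher in neurons, and Rps9 has no gene opposite.
Rpl35, chr2:39005112-39005171, minus strand: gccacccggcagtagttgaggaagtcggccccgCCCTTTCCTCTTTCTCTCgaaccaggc
Rps10, chr17:27635225-27635284, minus strand: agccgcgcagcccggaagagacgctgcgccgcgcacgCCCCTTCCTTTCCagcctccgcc
Gm15420, chr17:27635204-27635263, plus strand: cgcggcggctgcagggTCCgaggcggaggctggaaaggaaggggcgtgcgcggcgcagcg
Rpl28, chr7:4792925-4792984, plus strand: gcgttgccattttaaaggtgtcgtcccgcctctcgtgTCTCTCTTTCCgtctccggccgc
Rps9, chr7:3704001-3704060, plus strand: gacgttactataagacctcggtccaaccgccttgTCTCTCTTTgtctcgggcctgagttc
Rps28, chr17:33824543-33824602, minus strand: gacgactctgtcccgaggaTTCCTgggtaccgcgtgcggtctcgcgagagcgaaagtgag
The run of C and T was 18 letters long in Rpl35, 13 in Rps10, 11 in Rpl28 and 9 in Rps9, but only 5 in Rps28.

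A run of at least 8 letters in this window was found in 36 of the 63 ribosomal protein genes (57.1%), in 4 of the 12 neighbours, and in 27.2% of all 27025 genes with an entry. The run could lie anywhere in the window, and in Rpl27 its 9 letters began at position -40 and ended before the start. These are therefore not counts of terminal oligopyrimidine tracts. The letters CTTTCC, on either strand and within the full window of 250 bases before to 50 after the start, occurred in 33 ribosomal protein genes (52.4%) and in 29.3% of all genes. CCGGAA, the core bound by ETS-family factors, occurred on either strand in 35 (55.6%) against 16.7% of all genes, and in 7 of the 12 neighbours. These are letter matches and not sites shown to be used. For Rps10 and Gm15420 the annotated starts were 0 bases apart, and their full windows shared 99 bases, read from opposite strands. In the Rpl12 and Lrsam1 pair the starts were 71 bases apart and the windows shared 170 bases.

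The 83 ribosomal protein genes together took a small share of the counts, and a smaller one in neurons. They held 0.377%, 0.283% and 0.365% of all counts in the ESC libraries (in replicate order) but 0.0948%, 0.0850% and 0.0894% in the neuron libraries. The groups did not overlap, and ESC replicate 2 was the lowest ESC library. The means were 0.341% ± 0.051 in ESC and 0.0897% ± 0.0049 in neurons (SD, n = 3 each), a ratio of 3.81 (exact two-sided permutation test, p = 0.1, the smallest that 3 against 3 can give). The median ribosomal protein gene had 30 to 59 counts in an ESC library and 1 to 2 counts in a neuron library, and 21 to 30 of the 83 genes had 0 counts in a neuron library.

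The 21 neighbours held far more. Their share was 4.89%, 4.59% and 4.998% in ESC and 1.06%, 1.08% and 1.12% in neurons, with means of 4.83% ± 0.21 and 1.09% ± 0.03 (SD, n = 3 each, exact permutation p = 0.1). Most of that sum came from 4 genes (Wdr38, Tlcd1, Gm45552 and D730044K07Rik), which made 94.1% of the neighbours' counts in ESC and 75.6% in neurons. Those 4 took 4.54% ± 0.24 of all counts in ESC and 0.822% ± 0.030 in neurons. The other 17 took 0.285% ± 0.032 and 0.265% ± 0.009, a difference that did not exceed the spread (exact permutation p = 0.4). The summed share changed by -3.74 percentage points from ESC to neurons, and the share of the 4 most counted neighbours by -3.72. Shares are of unscaled library totals, while CPM and calls use TMM-scaled sizes. The shares therefore do not show that the other 17 kept their scaled level.

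**Figure D1:**
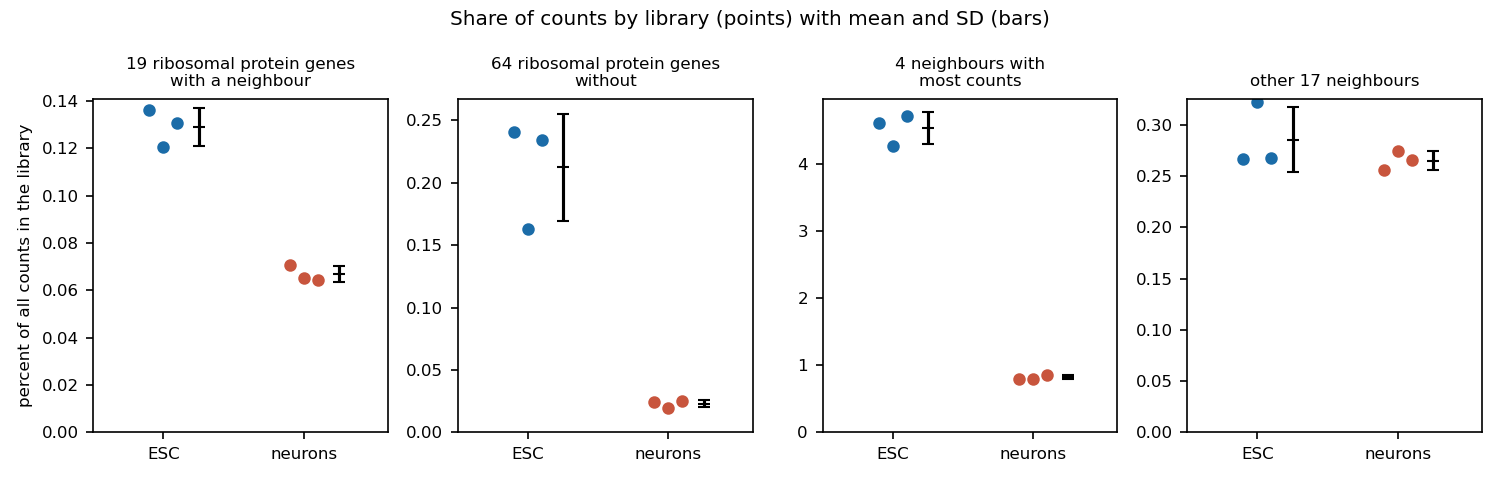
Share of all counts, in percent, for 2 sets of ribosomal protein genes and 2 sets of neighbours; each point is a library, the bar is mean and SD over 3 libraries, and each panel has its own axis from 0. Both sets of ribosomal protein genes and the 4 most counted neighbours are lower in all 3 neuron libraries, while the other 17 neighbours overlap between groups.

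Wdr38, Tlcd1 and D730044K07Rik each stood opposite a ribosomal protein gene with few counts. Wdr38, which encodes a WD-repeat protein, lies on chromosome 2 from 38887488 to 38896180 on the plus strand, and contains Rpl35 (38891592 to 38895636, minus strand) within its span. They share 821 exonic bases, 66.2% of the exonic length of Rpl35. Wdr38 had 24539, 18150 and 20849 counts in ESC, against 1212, 1030 and 1039 in neurons. Rpl35, a large-subunit protein gene, had 79, 62 and 69 counts in ESC, against 8, 8 and 10 in neurons. Both genes were high in every ESC library and low in every neuron library, and Wdr38 exceeded Rpl35 in all 6 libraries.

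Tlcd1, which encodes a protein that regulates membrane fluidity, lies on chromosome 11 from 78067537 to 78072735 and shares 506 exonic bases with Rpl23a, a large-subunit protein gene, tail to tail. It had 22459, 15697 and 18929 counts in ESC, against 1992, 1852 and 1786 in neurons. Rpl23a had 88, 63 and 67 counts against 20, 20 and 13. Tlcd1 was the most counted neighbour in all 3 neuron libraries, and Wdr38 in all 3 ESC libraries. Tlcd1 also covers the snoRNA genes Snord42a and Snord4a on the opposite strand. In all, 6 of the 21 neighbours share exonic bases with a further opposite-strand gene. Among them are Wdr38 with Gm13496, Sphk2 with Dbp, Nkiras1 with Ube2e1 and Lrsam1 with Fam129b. The part of these further genes in the neighbours' counts was not tested.

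Gm45552, annotated as an antisense RNA, had 20104, 13548 and 17350 counts in ESC, against 1261, 1112 and 1081 in neurons. D730044K07Rik, on chromosome 15 from 34443126 to 34444958, shares 616 exonic bases with Rpl30 head to head. It had 14890, 11045 and 12751 counts in ESC, against 559, 485 and 494 in neurons, while Rpl30 had 35, 26 and 25 against 3, 3 and 2. Per kilobase of exon the ESC level was 6373 CPM for Wdr38 against 48.9 for Rpl35, and the neuron level 555 against 10.3. Gm45552 was the highest of the 4 per kilobase, at 18825 CPM in ESC. In the pairs of Wdr38, Tlcd1 and D730044K07Rik the ribosomal protein gene held under 1.1% of the pair's counts in every library.

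**Figure D2:**
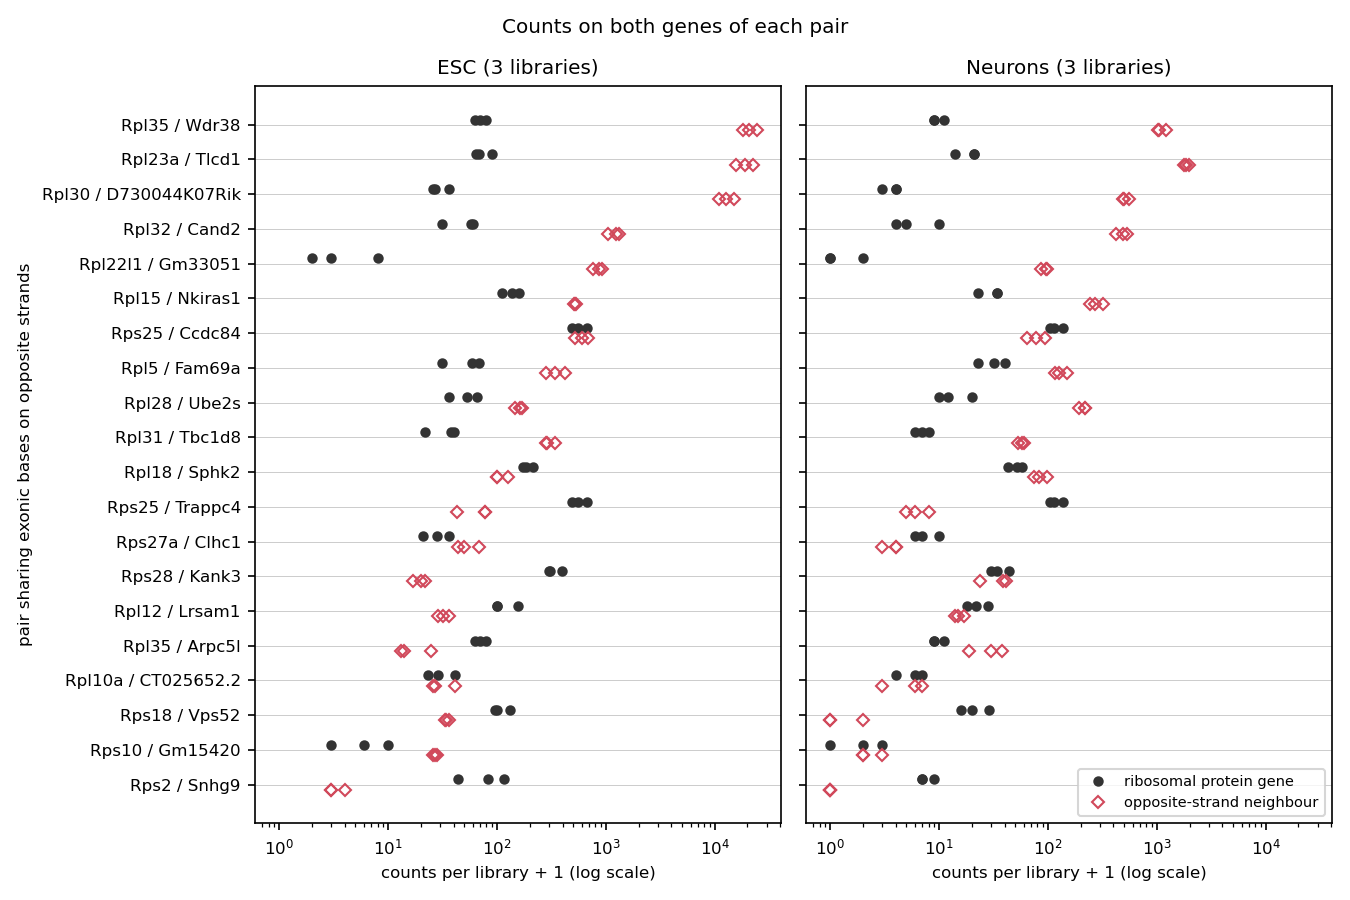
Counts per library plus 1, on a log scale, for both genes of 20 of the 21 pairs in 3 ESC libraries (left) and 3 neuron libraries (right); Rpl35 and Rps25 appear in 2 pairs each. The top 3 neighbours lie between 11045 and 24539 counts in the ESC panel and between 485 and 1992 in the neuron panel, with their ribosomal protein partners far lower.

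Over all 21 pairs the neighbour had more counts than the ribosomal protein gene in 12 to 14 pairs, depending on the library. Ribosomal protein genes held 2.60% ± 0.09 of the summed pair counts in ESC and 5.79% ± 0.42 in neurons (SD, n = 3 each, exact permutation p = 0.1). Rps25 carried much of that share, and without it the values were 1.87% and 4.06%. The median over pairs was 24.3% in ESC and 25.02% in neurons, and these did not differ beyond the spread (exact permutation p = 1). Across the 21 pairs the rank correlation between shared bases and the neighbour's ESC counts was 0.56, and with its neuron counts 0.43. The points share libraries, and 4 of them share a ribosomal protein gene, so these are descriptions only.

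The share within a pair does not depend on library scaling. Of the 17 pairs with at least 10 counts in every library, the groups did not overlap in 14, beside 59.6% of the 2746 pairs of opposite-strand genes in the whole table that met the same minimum. The ribosomal protein gene's share was higher in neurons in 6 pairs and lower in 8, so the pairs did not move one way. The lower shares included Rps28 with Kank3, Rpl35 with Arpc5l, Rpl18 with Sphk2 and Rpl28 with Ube2s. In the first of these Rps28 held 94.9%, 94.0% and 95.02% of the pair's counts in ESC and 51.8%, 46.5% and 55.8% in neurons. In the second Rpl35 held 76.7%, 82.7% and 85.2% in ESC and 17.8%, 21.6% and 35.7% in neurons. The higher shares included Rps18 with Vps52, where Rps18 held 73.9 to 79.9% in ESC and 95 to 100% in neurons.

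Counts assigned to ribosomal protein genes were lower in neurons almost throughout. Whether the counted reads came from the strand of a gene's own mRNA was not tested, for genes with or without a neighbour. Here, above and below, lower and higher therefore describe assigned counts, and a change in the mRNA itself was not tested. With edgeR's quasi-likelihood test and Benjamini-Hochberg adjustment over 7150 genes, 64 of the 83 could be tested. Of these, 62 were lower, 0 were higher and 2 did not pass. Among all genes tested, 38.6% were called lower, 47% higher and 85.6% either way, so being called was common. Their median log2 fold change was -3.96, against 0.37 over all genes tested. A gene passed the filter mostly through its ESC counts, so the tested genes are not all members. Without a filter 72 of 82 were called, all 72 lower, beside 40.8% of 28820 genes called either way, 19.6% lower and 21.2% higher. Counted by CPM alone, the groups did not overlap for 74 of 83 genes, of which 73 were higher in ESC, beside 47.1% of all genes with a count, 22.8% lower and 24.2% higher in neurons. The exception was Rpl24, a large-subunit protein gene, with 0, 2 and 0 counts in ESC, against 2, 2 and 3 in neurons. Rpl24 shares exonic bases with Gm28037 on its own strand, and other ribosomal protein genes have such partners too, as Rps10 has RPS10-NUDT3. The part of same-strand overlap in these counts was not tested.

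Genes of both subunits were lower in neurons. Of 51 large-subunit genes 37 were tested and 36 were lower, with a median log2 fold change of -3.71. Of 32 small-subunit genes 27 were tested and 26 were lower, with a median of -3.98. The large-subunit genes held 0.182% ± 0.030 of counts in ESC and 0.0459% ± 0.0045 in neurons, and the small-subunit genes 0.160% ± 0.021 and 0.0438% ± 0.0021 (SD, n = 3 each).

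Ribosomal protein genes with a neighbour kept more of their scaled counts in neurons than those without one, a description over genes that was not tested. Exons of genes with a neighbour share bases with it, so reads of the neighbour may be among their counts. That part was not tested. The 19 with a neighbour had a median of 36.7 CPM per kb of exon in ESC and 8.73 CPM per kb in neurons. The 64 without one had a median of 17.1 CPM per kb in ESC and 0.866 CPM per kb in neurons. In the first set 17 were tested, 16 were lower, and the median log2 fold change was -1.66. In the second 47 were tested, 46 were lower, and the median was -4.47. At least 10 counts in every neuron library were reached by 8 of the 19 and by 1 of the 64. The 19 genes held 36.2%, 42.5% and 35.8% of all ribosomal protein counts in ESC, and 74.5%, 76.5% and 72.1% in neurons. The groups did not overlap, with means of 38.2% ± 3.7 and 74.4% ± 2.2 (SD, n = 3 each, exact permutation p = 0.1).

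**Figure D3:**
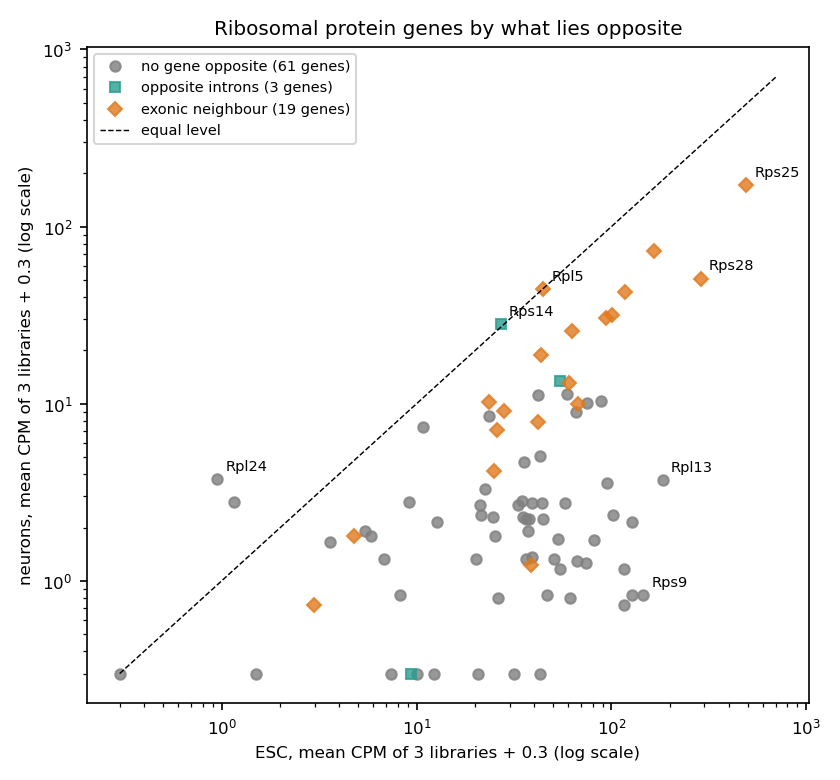
Mean CPM of 3 neuron libraries against mean CPM of 3 ESC libraries for the 83 ribosomal protein genes, each plus 0.3 on log axes, marked by what lies on the opposite strand. Genes with an exonic neighbour mostly lie nearer the line of equal level than genes with none, and Rpl5 and Rps14 lie on it.

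Rps25, which encodes a small-subunit protein, was the most counted ribosomal protein gene in all 6 libraries, with 672, 484 and 555 counts in ESC, against 136, 104 and 112 in neurons. Its level fell by 1.53 on the log2 scale (SE 0.13, adjusted p = 1.15e-13). It lies between Ccdc84, a gene linked to splicing, and Trappc4, a subunit of the TRAPP vesicle-tethering complex, and Ccdc84 fell by 2.22 and Trappc4 fell by 2.84 on the log2 scale. Rps28, also of the small subunit, had 392, 299 and 305 counts in ESC, against 43, 33 and 29 in neurons, and fell by 2.49 (SE 0.17, adjusted p = 2.05e-16). Rpl18, of the large subunit, had 213, 172 and 185 against 57, 51 and 42. Rpl15 had 159, 110 and 137 against 33, 33 and 22. All 4 of these have a neighbour, and in none did the groups overlap.

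All 9 ribosomal protein genes with 0 counts in every neuron library lacked an exonic neighbour; 8 had no gene opposite, and Rpl35a, with 14, 5 and 13 counts in ESC, lay opposite introns. Rps9 had 214, 111 and 184 counts in ESC, against 0, 0 and 1 in neurons, Rpl8 had 188, 109 and 148 against 0, 0 and 1, and Rpl4 had 184, 79 and 148 against 1, 0 and 0. From summed counts the ESC level of Rps9 was 303 times its neuron level, with a 95% counting interval from 54.1 to 11974. The intervals cover counting error only. Rpl10 had 44, 18 and 48 counts in ESC, against 0 in every neuron library, and was at least 21.8-fold higher in ESC, taking 3 counts over the group as the floor. Another 26 genes had 1 to 3 counts over the 3 neuron libraries together. Rpl13, with 282, 141 and 221 counts in ESC, was the most counted gene without a neighbour in the 3 ESC libraries and had 2, 4 and 1 in neurons.

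The 2 tested genes that were not called were Rpl5 and Rps14. Rpl5, which carries 5S rRNA into the large subunit, had 68, 30 and 58 counts in ESC, against 39, 31 and 22 in neurons, and its level was 44.2 ± 13.2 against 44.1 ± 8.0 CPM (SD, n = 3 each). It shares 953 exonic bases with Fam69a, which was lower (log2 fold change -0.67, SE 0.17, adjusted p = 5.46e-04 by edgeR; not called when libraries were scaled by total counts, at 0.059, or with a mean of at least 10 counts, at -0.31). Rps14, a small-subunit gene that lies opposite introns only, had 51, 29 and 15 counts in ESC, against 14, 19 and 23 in neurons, and 26.7 ± 12.5 against 27.8 ± 9.3 CPM. The groups overlapped for both genes. When libraries were scaled by total counts alone, both were called higher in neurons, by 0.73 for Rpl5 and 0.74 for Rps14 on the log2 scale.

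Per kilobase of exon, the ribosomal protein gene with the highest mean level in ESC was Rps25, at 183 CPM per kb, followed by Rps28 at 167 and Rplp1, an acidic stalk protein gene, at 132. The median was 20.5 CPM per kb in ESC and 1.28 in neurons. Paralogous copies of other ribosomal protein genes had few counts. Rpl39l had 0 counts in all 6 libraries, Rpl10l had 1, 2 and 1 in ESC, against 0 in neurons, and Rpl3l, the striated-muscle copy of Rpl3, had 1, 0 and 2 against 1, 2 and 2. Rpl22l1 had 7, 1 and 2 counts in ESC, against 1, 0 and 0 in neurons. Rpl7l1 had 20, 5 and 13 counts in ESC, against 8, 3 and 4 in neurons, and Rps27l had 6, 6 and 7 against 1, 0 and 2. Near-identical copies and processed pseudogenes share reads with these genes, so their counts are uncertain. The 300 annotated ribosomal protein pseudogenes held 0.0280% ± 0.0036 of counts in ESC and 0.0282% ± 0.0031 in neurons, and these did not differ beyond the spread (exact permutation p = 0.9).

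Neighbours did not move as one. Of 21, 20 were tested, 14 were lower in neurons, 4 were higher and 2 did not pass, beside 38.6% of all genes tested called lower, 47% higher and 85.6% either way. Snhg9, with 2, 3 and 2 counts in ESC, against 0 in neurons, was not tested. The median log2 fold change was -2.12. Among the 15 protein-coding neighbours 9 were lower and 4 higher, and among the 6 noncoding ones 5 were lower and 0 higher. By arrangement, 6 of 10 head-to-head neighbours and 7 of 9 tail-to-tail neighbours were lower, with 2 higher in each set. The groups did not overlap in CPM for 20 of the 21, and 16 of those were higher in ESC, beside 47.1% of all genes with a count, 22.8% lower and 24.2% higher in neurons.

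The falls were largest for Vps52, D730044K07Rik, Wdr38 and Clhc1. Vps52, a subunit of the GARP complex of endosome-to-Golgi transport, had 33, 32 and 35 counts in ESC, against 1, 0 and 0 in neurons. D730044K07Rik fell by 3.90 on the log2 scale (SE 0.10), and Wdr38 by 3.52 (SE 0.09). Clhc1 had 68, 49 and 43 counts in ESC, against 3, 3 and 2 in neurons. Gm15420, the antisense RNA opposite Rps10, had 26, 25 and 27 counts in ESC, against 1, 2 and 1 in neurons, and Rps10 had 9, 5 and 2 against 1, 0 and 2. Gm33051, opposite Rpl22l1, had 927, 855 and 766 counts in ESC, against 96, 95 and 86 in neurons.

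The 4 neighbours that were higher in neurons stood opposite ribosomal protein genes that were lower. Kank3, of the cytoskeletal KANK family, had 21, 19 and 16 counts in ESC, against 40, 38 and 23 in neurons (log2 fold change 1.59, SE 0.28, adjusted p = 2.96e-06 by edgeR), and lies opposite Rps28. Arpc5l, a subunit of the actin-nucleating Arp2/3 complex, had 24, 13 and 12 against 37, 29 and 18 (1.52 on the log2 scale, SE 0.31). Ube2s, a ubiquitin-conjugating enzyme that works with the anaphase-promoting complex, had 144, 169 and 162 against 217, 191 and 219 (1.14, SE 0.15). Sphk2, a sphingosine kinase, had 124, 100 and 100 against 97, 73 and 81, and its small rise of 0.38 (SE 0.17, adjusted p = 0.0402 by edgeR) was lost when any 1 library was left out, without a filter, with the replicate number as a block, with TMM factors computed without the members and with DESeq2's Wald test. Nkiras1, a Ras-like regulator of NF-kB, and Lrsam1, a ubiquitin ligase, were not called, with log2 fold changes of -0.15 and -0.38. The call for Nkiras1 depended on the setting: it was higher with total counts (0.58, adjusted p = 4.42e-05 by edgeR) and lower without ESC replicate 1 (-0.31) or neuron replicate 2 (-0.34).

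Of the 18 pairs in which both genes were tested, 14 had the same sign, 11 had both genes called lower, and in 4 the ribosomal protein gene was lower while the neighbour was higher. The differences within a pair ran from 4.08 log2 units in favour of Kank3 over Rps28 to 3.93 units the other way for Vps52 under Rps18. The Vps52 value is a fitted one that rests on 1 neuron count; from summed counts its ESC level was 59.4 times its neuron level, with a 95% counting interval from 10.4 to 2371. Without that pair the largest difference in that direction was 2.26 units, for Clhc1 under Rps27a. In the Rpl31 and Tbc1d8 pair, which shares 420 bases, the log2 fold changes were -1.66 and -1.68. The difference within a single pair was not tested.

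**Figure D4:**
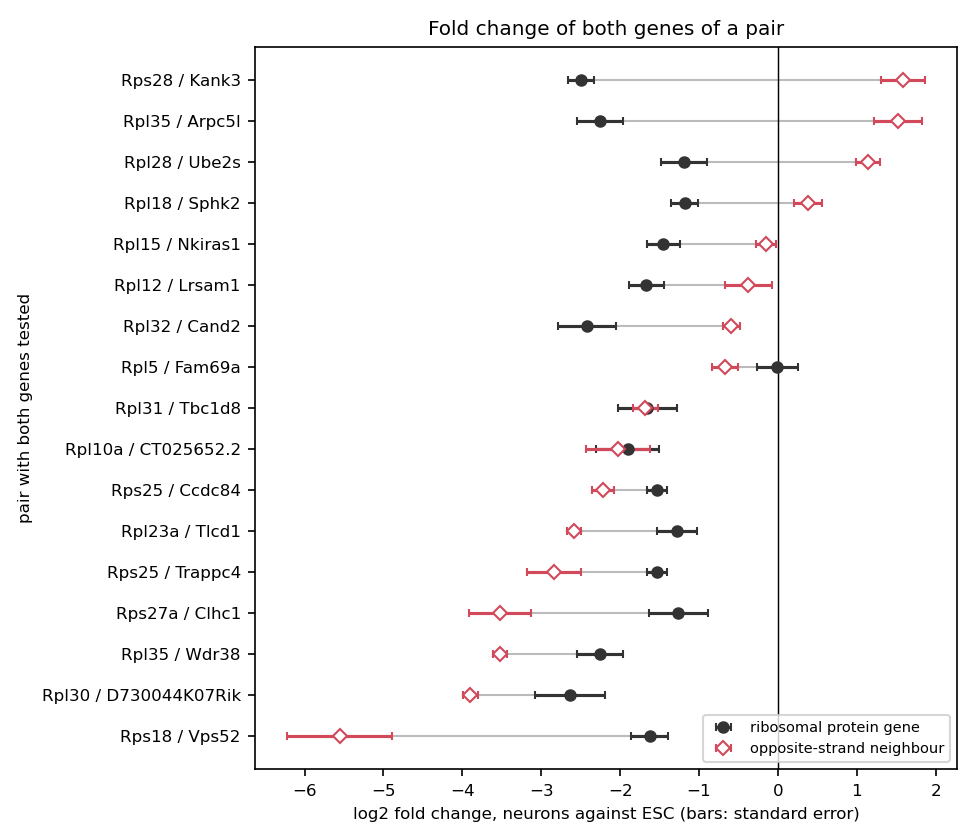
Log2 fold change of neurons against ESC, with standard error, for both genes of 17 of the 18 pairs in which both were tested, ordered by the neighbour's value. All but Rpl5 among the ribosomal protein genes lie at or below -1.18, while neighbours run from Vps52 at the bottom (-5.55, fitted on 1 neuron count) to Kank3 at the top (1.59).

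Other genes of translation were also mostly lower. Of 44 translation factor genes 22 were tested and 20 were lower, 0 higher, with a median log2 fold change of -3.06. Eef1a1, the elongation factor that delivers aminoacyl-tRNA, had 537, 216 and 506 counts in ESC, against 9, 11 and 6 in neurons. Eif5b, which joins the subunits at initiation, had 1194, 826 and 1072 against 152, 150 and 121. Ribosomal genes outside the symbol pattern gave 3 lower of 3 tested (among them Rack1, a scaffold on the small subunit, and Fau, which encodes a fusion of a ubiquitin-like protein with a ribosomal protein). Among all genes tested 38.6% were lower, 47% higher and 85.6% called either way, and the counts for these and the next lists are read beside those shares.

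Ribosome assembly genes were mixed. Of 50, 20 were tested, 13 were lower and 2 higher. Bysl, an assembly factor of the small subunit, had 931, 703 and 780 counts in ESC, against 74, 61 and 65 in neurons. Tsr1, also of the small subunit, went the other way, with 25, 18 and 27 counts in ESC, against 612, 587 and 477 in neurons. Of 78 mitochondrial ribosomal protein genes 22 were tested, 12 were lower and 6 higher. Mrpl47 had 3240, 2398 and 2605 counts in ESC against 184, 165 and 174, while Mrps25 had 1016, 838 and 846 against 512, 612 and 471 and did not differ after scaling (log2 fold change -0.0045). Growth control genes gave 5 higher and 4 lower of 9 tested, near the shares over all genes. Tsc2, an inhibitor of mTORC1 signalling, was higher by 0.94 on the log2 scale, and Lamtor1, which anchors that kinase at lysosomes, by 1.82. None of the 51 small nucleolar RNA genes within ribosomal protein genes could be tested.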

How the data were processed

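The authors deposited raw counts per gene for 6 libraries, with gene positions, strand and length. The submitters' processing notes name cutadapt, STAR, RSEM and GRCm39, without versions; the counting tool and its strand setting are not given in the sources used here. Libraries were grouped by title, and 0 sample columns were unmapped. The members and the gene lists were chosen with earlier results of these data known. Opposite-strand exonic overlap was computed from the listed exons (bedtools 2.31.1 for all pairs), and symbols and gene types came from GENCODE M21 by identifier.

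Genes passing edgeR 4.0.16 filterByExpr (minimum count 10) were fitted on TMM-scaled libraries (factors 0.774 to 0.779 in ESC and 1.28 to 1.30 in neurons) with the robust quasi-likelihood test, all 6 libraries and no covariate, in R 4.3.3. Adjusted p under 0.05 was a call. The SE of a log2 fold change is its absolute value divided by the square root of the quasi-likelihood F statistic. A fold against a group at 0 used 3 counts over the group; with 1 to 3 counts, the ratio of summed counts is given with an exact 95% interval. Shares used exact permutation tests (scipy 1.17.1). Counts were simulated for 7150 genes with 200 changed 4-fold, evenly up and down, and the same dispersion for every gene. Of these, 6450 genes, 181 of them changed, passed the filter. In that fit 86% of the 200 were called, and 4.97% of calls were unchanged genes. These rates cannot be carried over to the real data, where 85.6% of the genes tested were called. Named genes were those highest or lowest per kilobase or by fold, the tested genes not called, all partners, the paralogues and the top 3 of each list by level; other named genes were chosen after their values were seen. Alternatives were other scalings and filters, DESeq2 1.42.0, limma 3.58.1 voom, a replicate block, an overlap of at least 100 bases, and leaving out libraries. Leaving out neuron replicates 2 and 3 together and including the 6 pseudogenes were added after seeing the data. A few members are not reported here by name, and 1 pair is not drawn; the counts and sums include them.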

Additional observations from a re-analysis of the deposited data

How the results depend on the processing

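The count of ribosomal protein genes lower in neurons was 59 to 63 under other scalings, a mean of at least 10 counts, DESeq2 and limma-voom, and 72 without a filter. Without the filter the calls over all genes rose from 6119 to 11762, since more genes were tested. Scaling by total counts moved the median of all genes from 0.37 to 1.10 and the share of calls that were higher from 54.9% to 65.5%, lost the calls of Rpl28, Rps27 and Rps27a, and turned Cand2 to 0.14, Fam69a to 0.059, Nkiras1 to 0.58 and Rpl5 to 0.73. With a mean of at least 10 counts the calls of Cand2 (-0.22) and Fam69a (-0.31) were lost, which left 12 lower neighbours; Nkiras1 was 0.22 and Rpl5 0.36. Nkiras1 was called higher with total counts, and lower without ESC replicate 1 (-0.31) or neuron replicate 2 (-0.34). Rps14 was -0.016 with TMM factors computed without the members and -0.14 without the filter. Leaving out 1 library gave 5430 to 7353 calls over all genes, 51 to 68 ribosomal protein genes (all lower), 16 to 18 neighbours and 13 to 15 lower neighbours, differences in share of -0.281 to -0.234 and -3.86 to -3.65 percentage points, and a pair share difference of 2.95 to 3.36 points; fewer or more genes passed the filter each time. Rpl5 ran from -0.28 to 0.094, at 0.039 without ESC replicate 1, 0.016 without ESC replicate 3 and 0.094 without neuron replicate 3. Rps14 ran from -0.40 to 0.33, at -0.042 and -0.40 without ESC replicates 2 and 3, and -0.079 and -0.26 without neuron replicates 2 and 3. Without both neuron replicates 2 and 3 the lone neuron library was assumed to vary like the ESC libraries, Rpl5 was 0.28 and Rps14 -0.48, and 66 of 73 ribosomal protein genes were lower. Replicate numbers are shared by the groups but did not pair the libraries (correlations of deviations 0.0189, 0.00394 and -0.0223); with the replicate block 6088 genes, 62 ribosomal protein genes and 17 neighbours were called, and Rpl5 was 0.013. The causes of these changes were not tested. Depth limits the ribosomal protein genes in neurons, where most had under 5 counts per library.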
